A study of Rattus norvegicus with 6 samples.

Results

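A group of 10 genes around the switch from glucose to fat as fuel were examined in rat renal cortex after 4 weeks of 1,2-dibromoethane. They are the pyruvate dehydrogenase kinases Pdk4, Pdk2 and Pdk1, the lipoprotein lipase inhibitor Angptl4 and the lipase gene Lpl, the fatty acid carrier Cd36, the lipid droplet coat gene Plin2, the regulators Ppara and Ppargc1a, and Txnip. Members were all probes whose accession maps to 1 of these 10 genes, which gave 10 of the 15645 genes named by the annotation and 15 of the 61453 probes analysed. The genes were selected on earlier results of the same contrast, in which Pdk4 and Angptl4 had negative log2 differences. Differences between the groups are therefore given here as a description, and the counts of members past a threshold in the fit over all probes are no evidence for the members.

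The tested rats were 3 male Sprague-Dawley (Crl:CD(SD)) animals given 1,2-dibromoethane, a halogenated solvent, at 75 mg/kg/day for 4 weeks, and the comparison group was 3 males of that outbred stock given corn oil for the same time. All were bought at 5 weeks of age and kept on a basal diet. The sources used here do not give the route of dosing, or whether food was withdrawn before the tissue was taken. Each animal gave 1 single-colour Agilent array, so n = 3 per group, and the number of arrays limits the precision.

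In fasting, tissues spare glucose and burn fatty acids. Pyruvate dehydrogenase kinases phosphorylate and switch off the enzyme complex that feeds pyruvate into the citric acid cycle, and Pdk4 is the kinase most readily induced by fasting, by fatty acids through PPAR receptors and by glucocorticoids. Angptl4 is a secreted protein induced by the same signals, and it blocks lipoprotein lipase and so the local uptake of fatty acids from triglyceride-rich lipoproteins. The proximal tubule of the renal cortex runs largely on fatty acid oxidation, which PPAR-alpha (Ppara) drives together with its coactivator PGC-1-alpha (Ppargc1a).

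Pdk4 and Angptl4 stood lowest relative to corn oil among the 10 genes, and because they differed in the same direction, the 250 bases before their start sites are shown. The sequences are from RefSeq, build GRCr8, read 5′ to 3′ on the strand of the gene. Pdk4 lies on the minus strand at chr4:34568330-34568579 and Angptl4 on the minus strand at chr7:15258682-15258931. Capitals mark matches to the motifs searched.
Pdk4: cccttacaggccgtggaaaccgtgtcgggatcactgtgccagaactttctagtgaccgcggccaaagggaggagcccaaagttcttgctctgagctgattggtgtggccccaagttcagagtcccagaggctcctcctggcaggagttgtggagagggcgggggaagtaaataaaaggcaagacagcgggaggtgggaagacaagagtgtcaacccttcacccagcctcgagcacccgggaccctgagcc
Angptl4: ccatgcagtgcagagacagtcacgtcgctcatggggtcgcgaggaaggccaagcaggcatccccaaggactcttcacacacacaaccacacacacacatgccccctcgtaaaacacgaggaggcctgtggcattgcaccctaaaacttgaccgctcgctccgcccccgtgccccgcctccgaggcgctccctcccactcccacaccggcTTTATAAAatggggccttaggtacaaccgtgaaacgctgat

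Windows of 300 bases, from 250 before to 50 after the start, were found for 8 of the 10 genes; the others are Lpl and Txnip. On either strand, the nuclear receptor motif AGGTCA was in 0 of the 8 windows (16.2% of all 33469 windows), as was the pair of AGGTCA copies in 1 direction with 1 base between them that PPAR dimers bind (0.0538% of all). The glucocorticoid receptor motif AGAACA was in 0 (20.7% of all), the FOXO motif GTAAACA in 0 (3.78%) and the E box CACGTG in 2, Pdk2 and Plin2 (6.42%). The TATA box TATAAA (14.2% of all) was added after the windows were seen. It lay in the Angptl4 window at position -39 from the start, where a match on the opposite strand overlaps it. In the Cd36 window its letters lay at position -175, on the opposite strand only. A match here is a run of letters and not a bound site, and the absence of these letters from a short window says nothing of the factor.

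All 15 probes were well above background on all 6 arrays and passed the filter. Levels below are log2 of the signal relative to the array's 75th percentile, so a probe at that percentile stands at 0. Levels of different probes are not compared with each other. Of the 15 probes, 11 had a negative difference (dibromoethane minus control) and 4 a positive one, with a median of -0.20. Over all 37273 probes tested, 53.2% had a negative difference and the median was -0.01. No member probe (0 of 15) passed an adjusted p of 0.05 in limma, where 0.0268% of all probes did. At an unadjusted p under 0.05, 6 of 15 were lower (6.58% of all probes) and 0 were higher (4.69% of all). The groups did not overlap, with dibromoethane lower, for 5 of the 15 (11.8% of all), and with dibromoethane higher for 1 (7.58% of all). Since this contrast chose the genes, nothing is read from these shares.

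**Figure D1:**
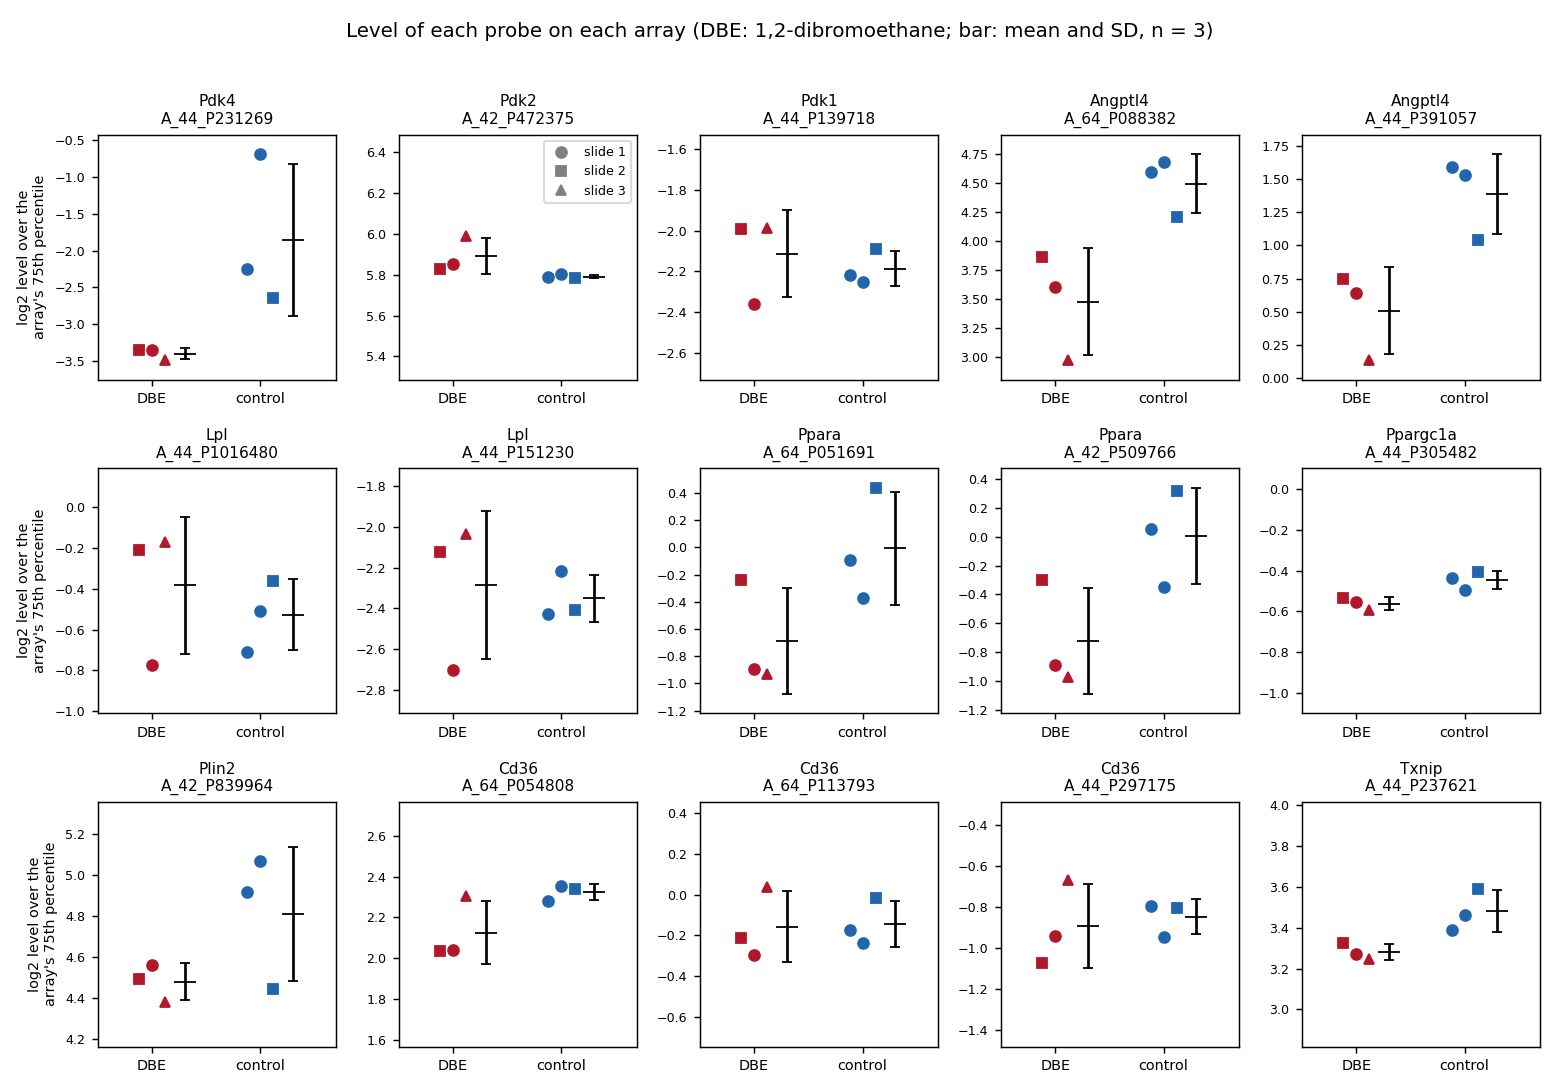
Log2 level (over the 75th percentile of the array, y axis) of each of the 15 probes on the 3 dibromoethane (DBE, red, left) and 3 control arrays (blue, right), with the marker shape giving the slide and the bar the mean and SD. All 3 treated animals lie below all 3 controls for Pdk4, both Angptl4 probes, Ppargc1a and Txnip, and the 3 controls are far apart for Pdk4.

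Among the pyruvate dehydrogenase kinases, Pdk4 alone had a difference of more than 1 log2 unit. Its probe read -3.35, -3.36 and -3.49 in dibromoethane replicates 1 to 3, against -2.25, -0.69 and -2.64 in control replicates 1 to 3. The treated animals thus lay within a narrow band below every control, whereas the controls were spread widely, with control replicate 2 far above the other two. Means were -3.40 ± 0.08 (SD, n = 3) with dibromoethane and -1.86 ± 1.04 (SD, n = 3) with corn oil, a 2.91-fold lower level (log2 difference -1.54, SE 0.49). Leaving out control replicate 2 brought the difference to -0.95, and leaving out any other array kept it between -1.93 and -1.49. It was -1.89 within slide 1, which holds control replicates 1 and 2 and dibromoethane replicate 2, and -0.70 within slide 2, which holds control replicate 3 and dibromoethane replicate 1.

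Pdk2, the kinase isoform found in most tissues, read 5.83, 5.85 and 5.99 in treated animals, against 5.79, 5.80 and 5.79 in controls. All treated values were above all controls, by a difference of only 0.10 (SE 0.07). Pdk1, the isoform known for its induction in hypoxia, read -1.99, -2.36 and -1.99 in treated animals, against -2.22, -2.25 and -2.09 in controls, and the groups overlapped (difference 0.07, SE 0.12). Its sign differed between slides, at -0.12 within slide 1 and 0.10 within slide 2.

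Angptl4 has 2 probes, and both placed the treated animals below all controls. The brighter probe read 3.86, 3.60 and 2.97 with dibromoethane, against 4.60, 4.69 and 4.21 with corn oil. Its means of 3.48 ± 0.46 and 4.50 ± 0.26 (SD, n = 3 each) amount to a 2.02-fold lower level (log2 difference -1.02, SE 0.25). In the dimmer probe the values were 0.74, 0.64 and 0.13 in treated animals, against 1.59, 1.53 and 1.04 in controls (difference -0.88, SE 0.22). Both probes ordered the treated arrays alike, with dibromoethane replicate 3 lowest, and both had control replicate 3 as the lowest control. The brighter probe gave -1.04 within slide 1 and -0.34 within slide 2, and the dimmer one -0.92 and -0.30. Without any 1 array the brighter probe stayed between -1.21 and -0.76.

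Lpl, the enzyme that Angptl4 inhibits, did not share this pattern. Its brighter probe read -0.21, -0.77 and -0.17 in treated animals, against -0.71, -0.51 and -0.36 in controls, so that treated animals held both the highest and the lowest values. The difference was 0.14 (SE 0.19), with -0.16 within slide 1 and 0.15 within slide 2. The dimmer probe gave 0.06 (SE 0.19), with -0.38 and 0.28 within the slides. Dibromoethane replicate 2 was the lowest array in both probes.

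Cd36, a membrane carrier of long-chain fatty acids, has 3 probes. The brightest read 2.03, 2.04 and 2.30 in treated animals, against 2.28, 2.35 and 2.34 in controls, with dibromoethane replicate 3 among the controls (difference -0.20, SE 0.10). The others differed by -0.01 (SE 0.11) and -0.05 (SE 0.12), with overlapping groups. In all 3 probes dibromoethane replicate 3 was the highest treated animal.

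Plin2, which coats the lipid droplets of most cells, read 4.49, 4.56 and 4.38 in treated animals, against 4.92, 5.07 and 4.44 in controls. Control replicate 3 lay among the treated animals, and the other controls above all of them (difference -0.33, SE 0.17). The value was -0.43 within slide 1 and 0.05 within slide 2. Control replicate 2 had the highest level of both Plin2 and Pdk4.

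Ppara, the receptor that switches on fatty acid oxidation genes, gave like values in its 2 probes. One read -0.24, -0.89 and -0.93 in treated animals, against -0.09, -0.37 and 0.44 in controls (difference -0.68, SE 0.27). The other read -0.30, -0.89 and -0.97 in treated animals, against 0.05, -0.35 and 0.31 in controls (difference -0.73, SE 0.24). Dibromoethane replicate 1 stood above control replicate 2 in both, so the groups overlapped. The slides gave nearly the same size, -0.66 and -0.68 for one probe and -0.74 and -0.61 for the other.

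The single probe of Ppargc1a read -0.54, -0.56 and -0.59 in treated animals, against -0.44, -0.49 and -0.41 in controls. The groups did not overlap, and the difference was small (-0.12, SE 0.07). Txnip encodes an arrestin-like protein that binds thioredoxin, restrains glucose uptake and is induced by glucose. It read 3.32, 3.27 and 3.25 in treated animals, against 3.39, 3.46 and 3.59 in controls. All treated values lay below all controls (difference -0.20, SE 0.08), within slide 1 (-0.15) and within slide 2 (-0.27) alike.

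**Figure D2:**
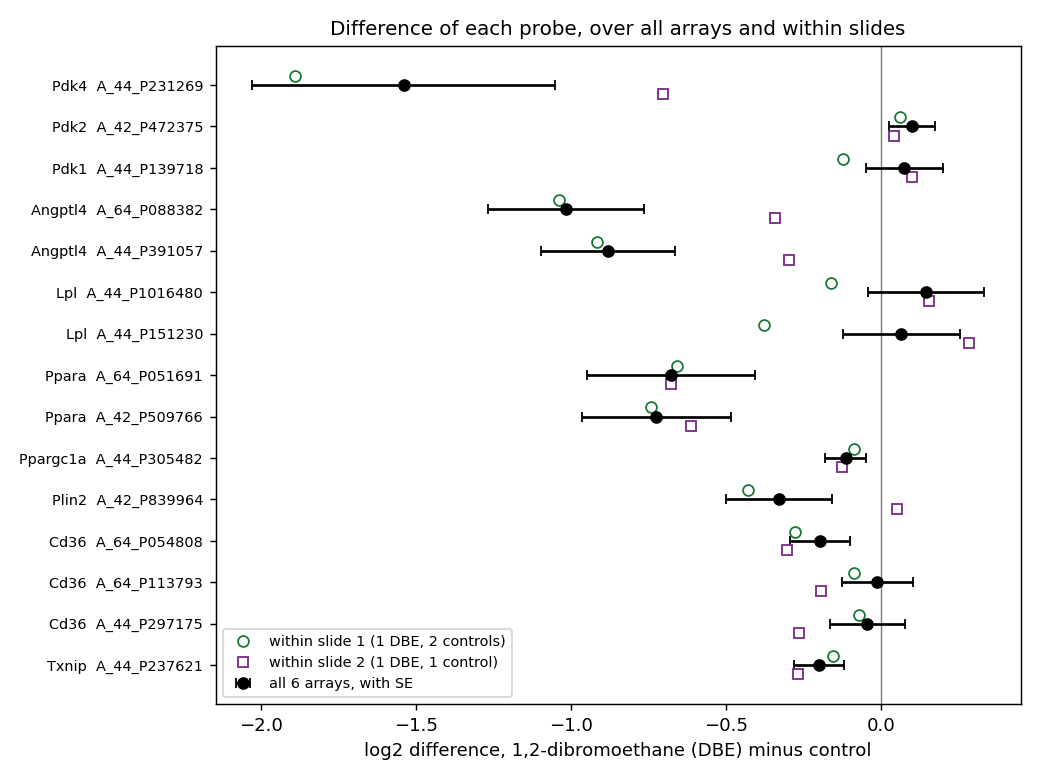
Log2 difference, dibromoethane (DBE) minus control (x axis), of the 15 probes over all 6 arrays with its SE (black), within slide 1 (green circles) and within slide 2 (purple squares). For Pdk4 and Angptl4 the value within slide 2 is nearer to 0 than that within slide 1, for Ppara the slides lie close together, and for Lpl, Pdk1 and Plin2 they fall on opposite sides of 0.

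Within each of the 2 slides that hold both groups, 10 of the 15 probes were lower with dibromoethane. All probes of 6 genes did so: Pdk4, Angptl4, Ppara, Ppargc1a, Cd36 and Txnip. Slide 3 holds only dibromoethane replicate 3, so it gives no such value. The share of all probes lower within both slides was not taken. Since this contrast chose the genes, nothing is read from these counts.

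The genes whose profile over the 6 arrays was most like that of Pdk4 were taken from 708 named probes above background on every array with an SD of at least 0.5. By Pearson r they were Rasd1, a small GTPase known for its induction by dexamethasone (0.986), Cebpb, a transcription factor of the C/EBP family (0.977), the phosphatase inhibitor gene Ppp1r14c (0.965), the Fc receptor gene Fcgr2b (0.950) and the lymphocyte gene Cd7 (0.945). Most opposed were Slc51a, a subunit of the bile acid and steroid carrier OST (-0.940), Timm8a2 (-0.933) and Rpap1 (-0.919). These values describe 6 arrays with 1 far point, control replicate 2, and carry no test. Rasd1 read -2.29, -2.43 and -2.68 in treated animals, against -1.45, -0.55 and -2.01 in controls, so that control replicate 2 was the highest array here as well.

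**Figure D3:**
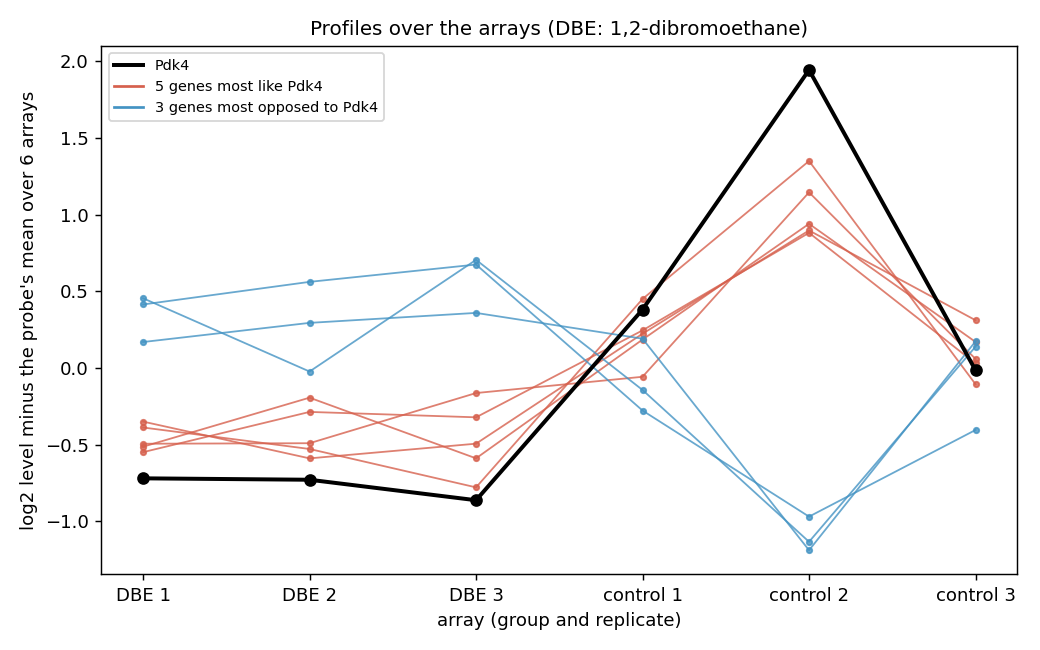
Log2 level minus the mean of the probe over 6 arrays (y axis) on each array (x axis, dibromoethane, DBE, left of control), for Pdk4 (black), the 5 genes most like it (red) and the 3 most opposed (blue). Control replicate 2 is the array farthest from the mean in every profile.

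Another 7 lists of genes around fuel choice were read from the same fit, with 1 probe a gene (the brightest). No gene of any list passed an adjusted p of 0.05 in limma, so counts at an unadjusted p under 0.05 are given beside the shares of all probes above (6.58% lower, 4.69% higher). Counts of negative differences stand beside 53.2% of all tested probes. The lists were written with earlier results of these data known, and their counts are not independent support.

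Target genes of PPAR-alpha that fasting induces were mostly lower with dibromoethane. Of 26 measured genes 24 had a negative difference, with a median of -0.24. At an unadjusted p under 0.05, 12 were lower and 0 higher, and the smallest adjusted p was 0.209. Acsl1, which activates long-chain fatty acids as CoA esters, read 5.16, 5.12 and 5.17 in treated animals, against 5.68, 5.71 and 5.56 in controls. Its groups were well apart (difference -0.50, SE 0.07, limma adjusted p = 0.209). The fatty acid hydroxylase Cyp4a1 had a difference of -0.50 (SE 0.10), the thioesterase Acot2 one of -0.45 (SE 0.10) and the long-chain acyl-CoA dehydrogenase Acadl one of -0.34 (SE 0.07), and none of these overlapped between the groups. The list median stood at -0.32 on slide 1 alone and at -0.16 on slide 2 alone.

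These enzymes are abundant in the proximal tubule, and the summed signal of 8 proximal tubule markers was also lower in treated animals. It was 1936 to 1973 times the array's 75th percentile with dibromoethane, against 2114 to 2228 times with corn oil. Of the 8 markers 7 had a negative difference (median -0.09), although that of Slc5a2 was -0.0002. Without overlap, 4 were lower (11.8% of all probes): Slc22a6 (-0.28), Slc13a3 (-0.24), Miox (-0.15) and Slc34a1 (-0.08). Lrp2 and Slc22a8 overlapped between the groups, and Cubn had a positive difference (0.12). The part of these markers in the result was not tested. In bulk tissue, fewer cells of a type and less RNA per cell cannot be told apart.

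Fasting genes that answer to insulin, FOXO factors or glucocorticoids were read as 1 list, and most were also lower. Of 18 measured genes 15 had a negative difference, with a median of -0.21, and 8 were lower at an unadjusted p under 0.05 and 0 higher. The 4 with the smallest p are known targets of the glucocorticoid receptor. Fkbp5, a co-chaperone of that receptor, read 1.37, 1.43 and 1.60 in treated animals, against 2.17, 2.44 and 2.43 in controls, with no overlap (difference -0.88, SE 0.11, limma adjusted p = 0.164). The difference was -0.88 (SE 0.15) for Tsc22d3, -0.93 (SE 0.17) for the kinase gene Sgk1 and -1.51 (SE 0.31) for the clock gene Per1. Per1 gave -2.10 within slide 1 and -0.46 within slide 2, and Fkbp5 -0.87 and -1.06. Sgk1 gave -1.14 and -0.41, and Tsc22d3 -1.02 and -0.54. The other genes of the list did not share 1 direction. G6pc1 (-0.35) and Trib1 (-0.23) were lower without overlap, as were Ddit4 and Klf9. Pck1 (-0.19), Irs2 (-0.19), Insr (-0.01) and Igfbp1 (0.05) overlapped between the groups, and Sesn3 (0.21) was higher without overlap.

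Partners of lipoprotein lipase and carriers of fatty acids had no common direction, with 9 of 17 genes negative and a median of -0.01. At an unadjusted p under 0.05, 3 were lower and 2 higher. Apoc2, the activator of the lipase, gave 0.38 (SE 0.12), Apoe -0.61 (SE 0.14) and the fatty acid transport protein Slc27a1 -0.32 (SE 0.07). Gpihbp1, which anchors the lipase on capillaries, was too dim in both groups to be tested.

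Apoc2 is expressed mainly in liver, and 11 of 12 liver markers had a positive difference too, with a median of 1.34. Their summed signal was 24.7 to 61.8 times the 75th percentile with dibromoethane, highest in dibromoethane replicate 1, and 12.2 to 26.9 times with corn oil. Each of the 12 was above background on at least 1 array, and 9 on all 6. Apoa2, Serpina1 and Fgg were above it on 5 arrays and passed the filter through 1 group only. Control replicate 1 was the lowest array in each. Their differences (2.01, 2.09 and 2.52) are part of the count and median above, which are therefore given as a description only. The part of the liver markers in the value of Apoc2 was not tested.

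Genes of the pyruvate dehydrogenase complex and of pyruvate entry had no common direction. This list holds subunits of the complex, its phosphatases and Pdk3, and also pyruvate carriers, lactate dehydrogenases, pyruvate carboxylase and pyruvate kinases. Of its 15 measured genes 7 were negative, with a median of 0.04. That median turned to -0.05 within slide 2 and lay between -0.03 and 0.01 when 1 array was left out. Among the subunits, Pdha1 was lower without overlap (-0.13), while Pdhb (0.08), Dlat (0.08) and Dld (0.09) overlapped. At an unadjusted p under 0.05, 2 of the 15 were lower and 0 higher. Lactate dehydrogenase A (Ldha) read 5.72, 5.84 and 5.56 in treated animals, against 6.12, 6.07 and 5.97 in controls, without overlap (difference -0.35, SE 0.10, limma adjusted p = 0.357). The remaining kinase isoform, Pdk3, had a difference of -0.19 (SE 0.07), the phosphatase Pdp1 one of -0.16 (SE 0.08) and the pyruvate kinase gene Pkm one of 0.21 (SE 0.10).

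Of 12 genes of lipid droplets and lipolysis 8 were negative (median -0.06), with 2 lower at an unadjusted p under 0.05. Fitm2, which helps droplets form, gave -0.30 (SE 0.09), the monoglyceride lipase Mgll -0.37 (SE 0.13), the hormone-sensitive lipase Lipe -0.26 (SE 0.13) and Cidea, a droplet protein of brown fat, 0.38 (SE 0.16). Fat around the kidney expresses Lpl, Cd36, Angptl4 and these genes. Of 12 markers of that fat 11 had a probe, 6 (Pck1 among them) were well above background on all arrays, and the leptin gene Lep was on none. Without Pck1, which the proximal tubule expresses strongly, their summed signal was 1.95 to 2.66 with dibromoethane, against 2.26 to 2.58 with corn oil, so the groups overlapped. Of the 7 fat markers tested, Pck1 (-0.19) included, 6 had a negative difference, as Angptl4 did, and Cidea a positive one. The median of the 7 was -0.26, with -0.15 within slide 1 and 0.02 within slide 2. Adipoq, the adipocyte hormone gene, read -0.09, -0.09 and -0.47 in treated animals, against -0.02, 0.08 and 0.23 in controls (difference -0.31, SE 0.13). The part of fat in the Angptl4 value was not tested.

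Transcription factors and coregulators had 14 of 20 genes negative and a median of -0.05, with 0 lower and 1 higher at an unadjusted p under 0.05. The one was Pparg, the PPAR isoform known from fat cells, at 0.39 (SE 0.13, limma adjusted p = 0.396). Nr4a1, an immediate early nuclear receptor, gave -0.74 (SE 0.31) and the corepressors Nrip1 and Ncor1 -0.14 (SE 0.07) and -0.17 (SE 0.09). Relatives of Txnip and genes of glucose sensing had 6 of 15 negative and a median of 0.06. Slc2a4, the insulin-regulated glucose transporter, gave 0.56 (SE 0.16, limma adjusted p = 0.361), the others being Txn2 at 0.20 (SE 0.11), Slc2a1 at -0.21 (SE 0.11) and Slc2a2 at 0.19 (SE 0.14).

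**Figure D4:**
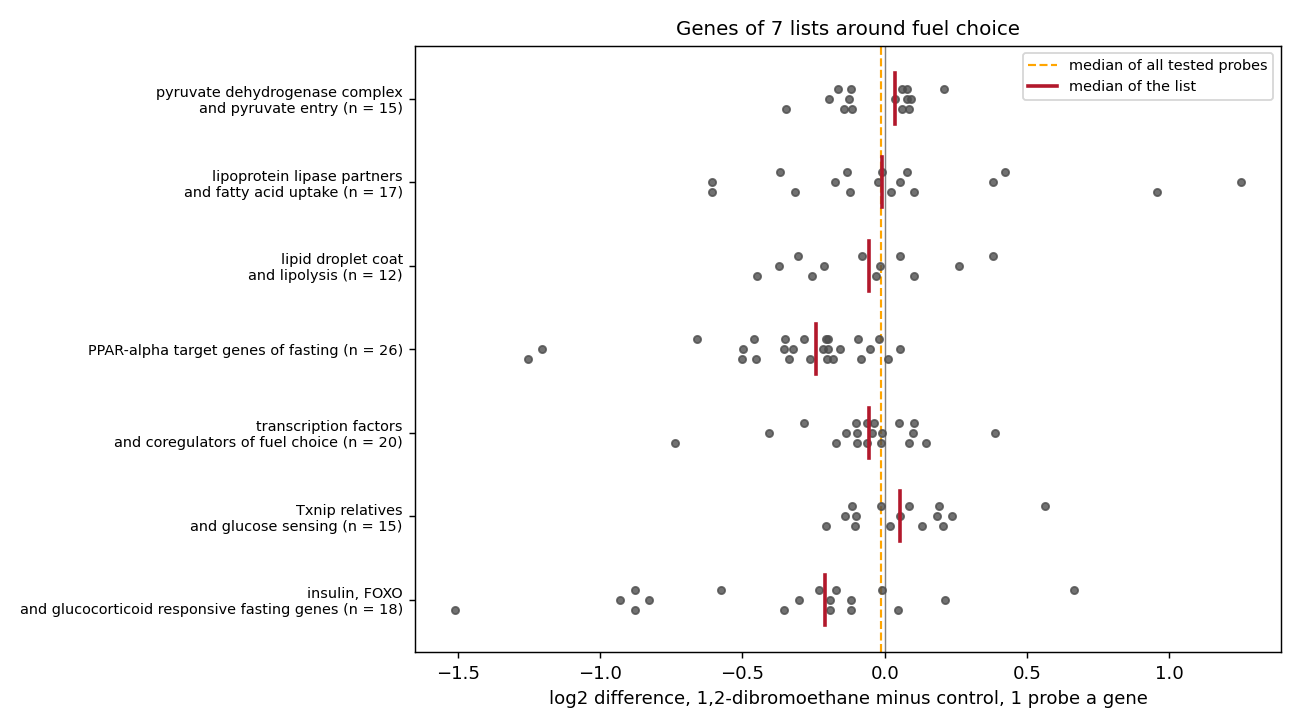
Log2 difference, dibromoethane minus control (x axis), of each measured gene of the 7 lists (points), with the median of each list (red bar) and of all tested probes (dashed line at -0.01). The lists of PPAR-alpha targets (median -0.24) and of insulin, FOXO and glucocorticoid responsive genes (median -0.21) lie mostly left of 0, and the other 5 medians lie between -0.06 and 0.06.

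Markers of the labelled tissue were found: all 8 proximal tubule and all 6 distal nephron markers were well above background on every array. Of 6 adrenal markers 3 were well above background on every array and 2 on none. Their sum was at most 0.853 with dibromoethane and 0.996 with corn oil, which does not show that adrenal tissue was absent. Macrophage markers summed to 13.6 to 16.1 in treated animals, against 18.3 to 20.6 in controls, and blood cell markers to 141 to 170, against 193 to 224, without overlap in either. Single markers differed in sign. Of 8 macrophage markers 5 were negative and 3 positive (median -0.09, with 0.02 within slide 1 and -0.37 within slide 2). Of 6 blood cell markers 3 were negative and 3 positive (median -0.19, with 0.17 within slide 1 and -0.44 within slide 2). Itgam (0.73) was above background on 4 arrays and Epb42 (-0.39) on 5, so each passed the filter through 1 group only. The complement genes C1qb and C1qa, which make up most of the macrophage sum, had differences of -0.48 (SE 0.09) and -0.54 (SE 0.13), and the haemoglobin gene Hbb, which makes up most of the blood cell sum, one of -0.43 (SE 0.10). The share of non-control features called above background ran from 59.2% to 67.7% over the 6 arrays, and 0 spots were saturated.

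**Figure D5:**
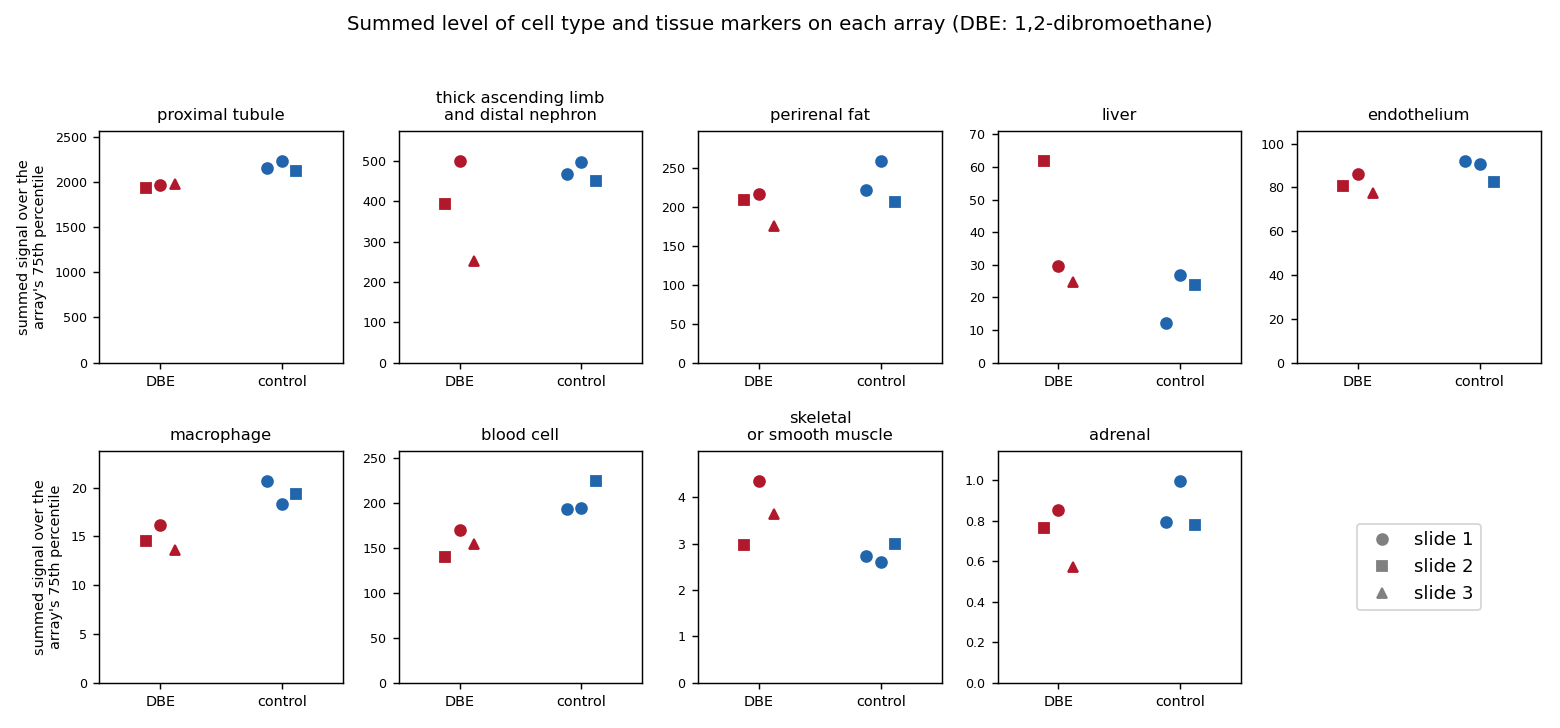
Summed signal of the markers of 9 cell types or tissues (y axis, in units of the 75th percentile of the array, from 0) on each dibromoethane (DBE, red, left) and control array (blue, right), with the marker shape giving the slide. Proximal tubule, macrophage and blood cell sums are lower in all treated animals, although 3 of 8 macrophage and 3 of 6 blood cell markers had positive differences, and the liver sum is highest in dibromoethane replicate 1.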

How the data were processed

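Cy3-labelled cRNA of 6 rats was hybridised to single-colour arrays. Per the file headers, the deposited intensity values per spot come from Agilent Feature Extraction 10.7.1.1 on design 045522 and are background-subtracted, and the submitters' processing notes name version 10.7. The deposited series table holds the same intensity divided by the 75th percentile of each array. From the deposited intensity, log2 values were taken here, less the 75th percentile of each array's non-control features. Control spots (1439), 84 spike-in probes and 1 to 11 outlier spots per array were left out. Accessions without versions matched 28206 probes to 1 symbol in a RefSeq table of GRCr8, whose build differs from that of the array. The coordinates printed for the promoter windows are those of GRCr8, and no other gene coordinates are given. Probe sequences were not used here.

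Each probe was a feature, tested if every array of 1 group or of both called it well above background (37273 probes). The comparison used limma 3.58.1 under R 4.3.3 (lmFit, then eBayes), two-sided, without covariates, with Benjamini-Hochberg adjustment over all tested probes. The code was tested on simulated data. Labels describe 3 animals per group. The members and lists were chosen with earlier results of these data known. Genes named from a list are the 4 with the smallest p (some are not reported here), and for likeness to Pdk4 the 5 highest and 3 lowest correlations. Arrays lay on 3 slides, and slide 2 was scanned on another day than slides 1 and 3. Alternatives were other normalizations, filters, probe summaries and moderation, slide, scan day or replicate number as a block, and leaving out arrays. Normexp used the median spot signal, since the planned mean signal is not a column used here. Replicate numbers are shared by the groups, but deviations of same-numbered arrays correlated at r = -0.20, 0.24 and 0.13, so they were not treated as pairs.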

Additional observations from a re-analysis of the deposited data

How the results depend on the processing

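Over all probes, 10 were called by limma. The count was 6 with normexp background correction, 1 without a filter on dim probes (61453 tested), 2 with scan day as a block and 20 with trend and robust moderation. It was 0 with slide as a fixed block (4378 at an unadjusted p under 0.05). Dropping slide 3, which holds a single treated array, amounts to the same fit and is no separate check. With the replicate block the count was also 0 (4452 at an unadjusted p under 0.05). These last fits have 2 residual degrees of freedom. Leaving out 1 array gave 1 to 13. With slide as a fixed block the difference was -1.38 for Pdk4 and -0.74 for Angptl4 (brighter probe), while the replicate block, being balanced, cannot change a difference. No member probe and no gene of the 7 lists was called under any alternative run. The difference of Pdk4 was -0.70 within slide 2 alone, where 1 animal stands against 1, and -1.93 to -0.95 when 1 array was left out, the last without control replicate 2. For Angptl4 (brighter probe) it was -0.34 within slide 2 alone and -1.21 to -0.76 when 1 array was left out. Of 340 recomputed member differences 18 changed sign, all in Lpl, Pdk1, Plin2 or the 2 dimmer Cd36 probes, and 11 moved by more than the SD between replicates. The cause was not tested. Filters on probes, the trend and robust moderation and the balanced scan day and replicate blocks cannot change a difference. Part of the 340 therefore repeats the main value. Normexp, which adds an offset of 50 before the log2 step, gave -1.03 for Pdk4.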

Other observations

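Some genes of the lists that the naming rule did not take had large differences, and the following were chosen after their values were seen. Creb3l3, a transcription factor of the fasting liver, read 2.02, 1.06 and 1.52 with dibromoethane, against 3.29, 2.71 and 2.34 with corn oil (log2 difference -1.25, SE 0.32, limma adjusted p = 0.342), with -1.95 within slide 1 and -0.33 within slide 2. Vnn1, a pantetheinase gene and PPAR-alpha target, had a difference of -0.66 (SE 0.16) without overlap. It was -0.88 within slide 1 and -0.32 within slide 2.

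Ddit4, a stress-induced inhibitor of mTORC1, read 1.66, 1.43 and 1.48 with dibromoethane, against 2.61, 2.45 and 1.99 with corn oil (difference -0.83, SE 0.17, limma adjusted p = 0.260). The difference of Ddit4 was -1.10 within slide 1 and -0.33 within slide 2. Klf9, a transcription factor induced by glucocorticoids, had a difference of -0.58 (SE 0.13) without overlap, and was lower within both slides (-0.49 and -0.64). Irs1, an adaptor of the insulin receptor, had a difference of 0.66 (SE 0.61) that came from dibromoethane replicate 1, at -1.73, while the other treated animals (-3.79 and -4.07) lay close to the controls (-4.07 to -3.56).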
